A study of Saccharomyces cerevisiae with 8 samples.

Results

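Chromatin was described at 6 yeast genes of the general stress response: DDR48 (YMR173W), TSL1 (YML100W), PGM2 (YMR105C), ALD3 (YMR169C), SIP18 (YMR175W) and GAD1 (YMR250W). They were chosen by name from 1999 transcripts listed with coordinates by the study, and nothing measured in these libraries entered that choice as a rule. Each gene was followed from 800 bp upstream of its listed start to the end of its transcript. All 6 lie on chromosome 13 in the sacCer1 build. On the plus strand are TSL1 from 70575 to 74036, DDR48 from 608647 to 610051, SIP18 from 611015 to 611369 and GAD1 from 770761 to 772662. On the minus strand are PGM2 from 475770 to 477665 and ALD3 from 599318 to 601017. Distances below are counted from the listed start in the direction of transcription, so that negative values lie upstream.

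When yeast cells meet heat, oxidants, osmotic shock or starvation, the zinc finger factors Msn2 and Msn4 enter the nucleus and bind short stress response elements in the promoters of a broad set of genes. At rest the promoters of many such genes are covered by nucleosomes, octamers of histones around which DNA is wrapped, and induction goes along with their removal. TSL1 encodes a regulatory subunit of the enzyme complex that makes trehalose, a sugar that protects proteins and membranes. PGM2 encodes the main phosphoglucomutase, which supplies glucose 1-phosphate for trehalose and glycogen and also serves the use of galactose. GAD1 encodes glutamate decarboxylase, ALD3 a cytoplasmic aldehyde dehydrogenase, SIP18 a hydrophilin that protects cells from drying, and DDR48 a protein first known from cells with damaged DNA.

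Micrococcal nuclease digestion followed by paired-end sequencing (MNase-seq) gave the fragments that nucleosomes protect, and the middle of a fragment, its read center, marks the middle of a nucleosome. The 8 libraries came from 2 cultures of the wildtype strain YEF473A (replicates B and C) and 2 cultures of the H3 shutoff strain DCB200.1 (replicates 3 and 4), each taken at 0 hours, immediately after a shift from galactose to dextrose, and at 3 hours. In the H3 shutoff strain HHT1, 1 of the genes for histone H3, is deleted and the other, HHT2, is driven by the GAL1 promoter, so dextrose stops the supply of H3. The study asked which nucleosomes are lost or moved when H3 runs short, and the wildtype cultures show what the change of sugar does without that shortage. According to the paper, H3 shutoff cells in dextrose copy their DNA and then arrest with large buds, while wildtype cells keep dividing. Arrest and shortage of H3 therefore cannot be told apart in a difference between the strains.

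Every library held 5000001 fragments of 100 to 200 bp, so that a count is relative to all other positions in the same library and a loss shared by all nucleosomes cannot be seen. The mean fragment length rose from 0 to 3 hours in all 4 cultures, from 150.6 to 154.6 bp in wildtype B, from 146 to 156 bp in wildtype C, from 157.2 to 158 bp in H3 shutoff 3 and from 152.9 to 162.9 bp in H3 shutoff 4. The part of fragment length in the results was not tested, except that each count was repeated with fragments of 140 to 160 bp only. With 2 cultures per strain, p-values of windows and of the spread of read centers come from fits across the whole genome. Those of regions come from fits over the listed transcripts outside chromosome 10. Each sets a change against a variability that is estimated from these few cultures, with information shared over all features. Reads of near-identical sequences, such as those of ALD3 and its neighbor ALD2 or the repeats inside DDR48, could have been placed at either copy, so counts there are less certain.

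**Figure D1:**
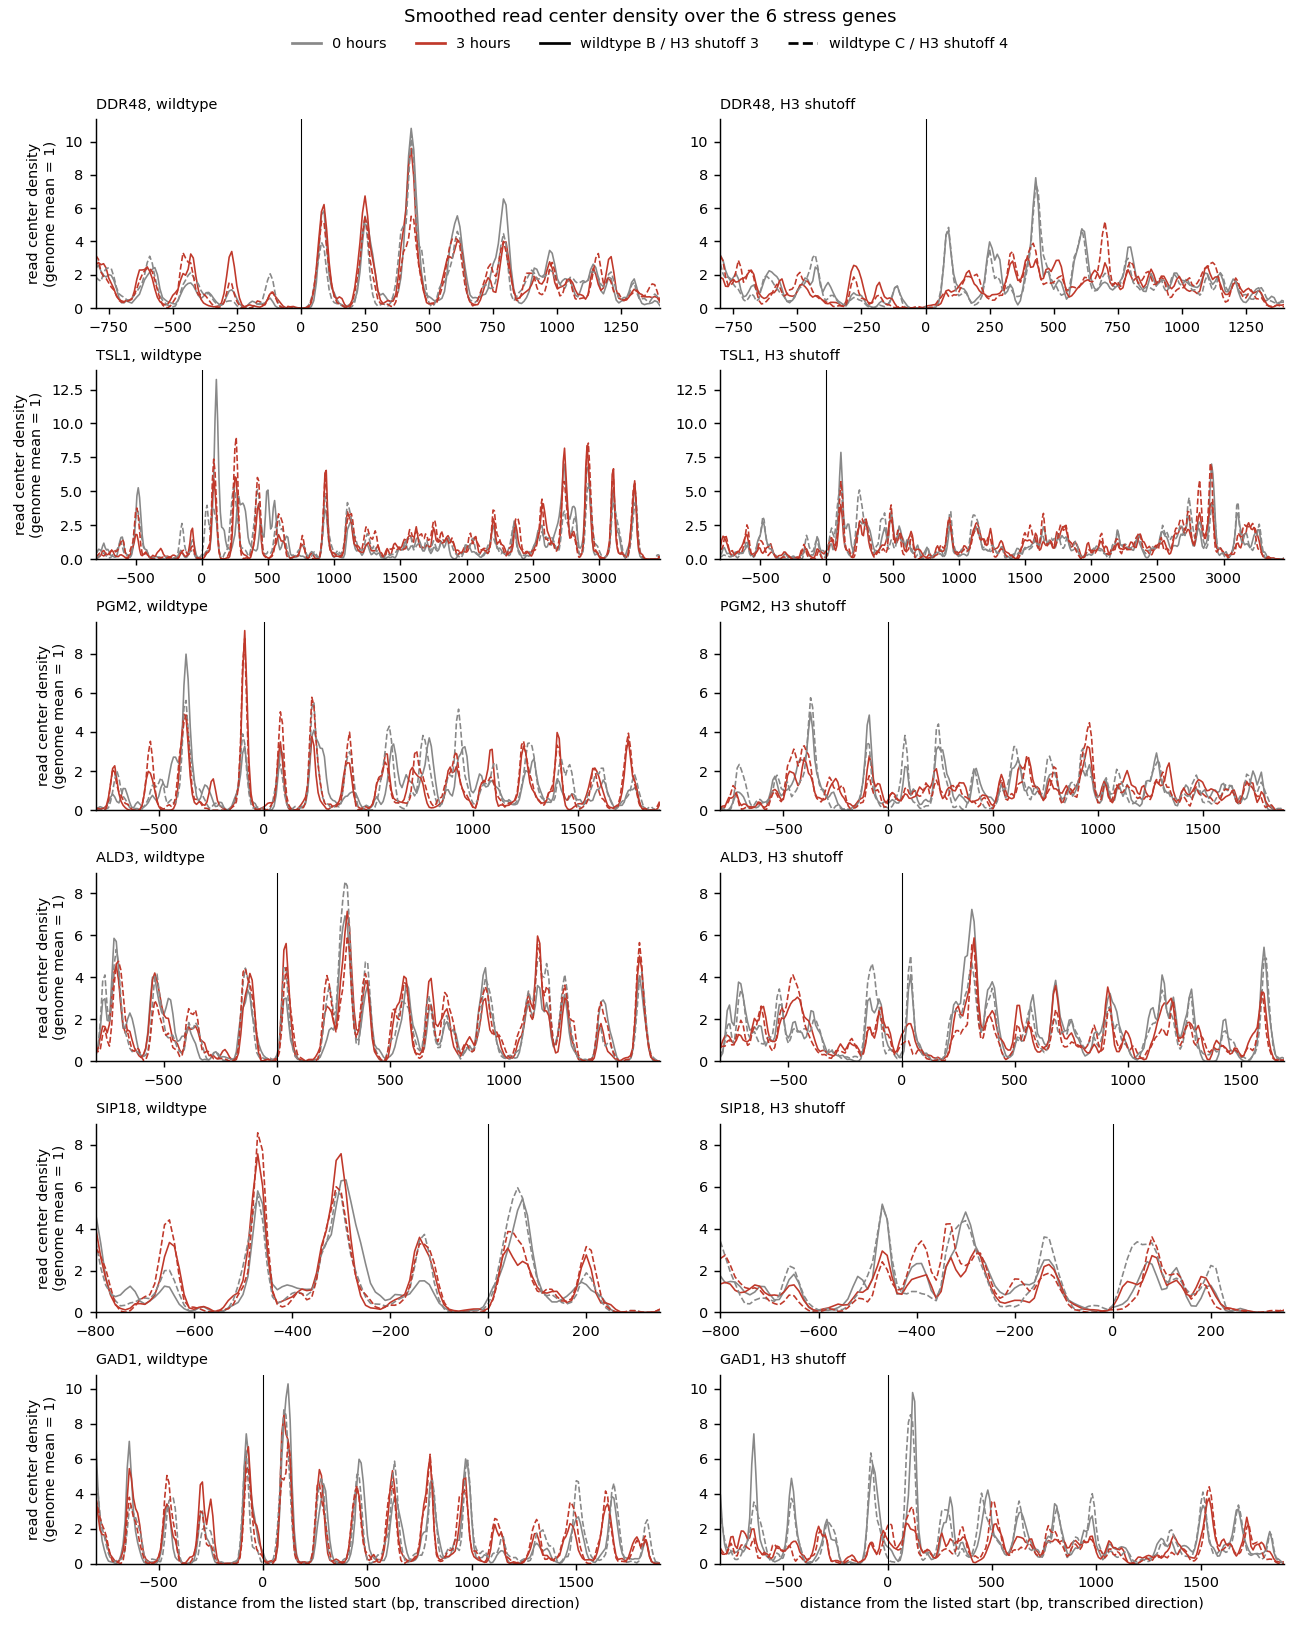
Read center density (smoothed with an SD of 10 bp, genome mean of 1) against the distance from the listed start in bp for the 6 genes, with wildtype on the left and H3 shutoff on the right. Grey lines are 0 hours, red lines 3 hours, and solid and dashed lines are the 2 cultures of a strain. In the H3 shutoff strain at 3 hours the sharp peaks of GAD1 and of the first nucleosomes of DDR48 are replaced by low, broad density, while the wildtype lines keep their peaks.

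Upon H3 depletion, windows around nucleosome centers of the 6 genes lost read centers, most of all over GAD1 and at the start of DDR48. Nucleosome centers called in the 8 libraries pooled gave 82 windows of 100 bp in the 6 genes, of which 81 held enough read centers to be tested. Between 0 and 3 hours in the H3 shutoff strain, 29 of these 81 windows fell and 2 rose (edgeR quasi-likelihood test, adjusted p under 0.05). Over all 60321 windows of the genome, 22% fell and 5.2% rose. The nucleosomes called by the authors at 0 hours had medians of 69 to 78 read centers in the 6 genes, against 51 to 56 over all calls. A test of counts passes more readily at higher counts, and the windows were not matched for this. In the wildtype, 0 of the 81 windows fell and 2 rose, against 1.2% and 0.504% of all windows (1.7% in both directions), and 19 of the 81 had an unadjusted p under 0.05, as had 11872 of all 60321. DESeq2 called 0 of them in the wildtype. The difference of the changes between the strains was negative and past the threshold in 26 windows and positive in 1, against 16.3% and 4.64% of all windows.

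The windows that fell were spread unevenly over the genes. GAD1 had 10 of its 15 windows among them, PGM2 6 of 14, DDR48 5 of 13, ALD3 4 of 12, TSL1 3 of 21 and SIP18 1 of 6. By position, 11 of 24 windows upstream of the starts fell, 8 of 16 in the first 500 bp of the transcripts and 10 of 41 further downstream. The same zones of the listed transcripts lost 31.3%, 38.9% and 13.1% of their windows. Both H3 shutoff libraries of 3 hours lay below the other 6 libraries in 39 of the 82 windows, the untested one included, and in 34.3% of all tested windows.

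How many windows passed depended on the H3 shutoff cultures and on the scaling. Without H3 shutoff 3, 10 windows fell, and without H3 shutoff 4, 6 fell, against 7.74% and 2.79% of all windows. For the difference between the strains the numbers were 13 and 7, against 8.47% and 3.24% of all windows. The median log2 change in the H3 shutoff strain was -0.60 over the 81 windows and -0.35 over all windows. Over all windows it was -0.53 at a width of 60 bp and -0.18 at 140 bp, and over whole gene bodies it was -0.05. The bodies of DDR48, TSL1, PGM2 and SIP18 changed by -0.16, -0.02, -0.11 and -0.16, and none passed in edgeR's test. Loss of a nucleosome and movement out of a window were not separated. Of all windows called, 80.9% fell without scaling and 41.7% with TMM scaling. TMM scaling, which brings the median of all windows to -0.02, left the genes a median of -0.27. With it 9 windows fell, all among the 29, and 5 rose, against 7.57% and 10.6% of all windows. DESeq2 with its own size factors called 1 window that fell, the one at -77 bp of GAD1.

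**Figure D2:**
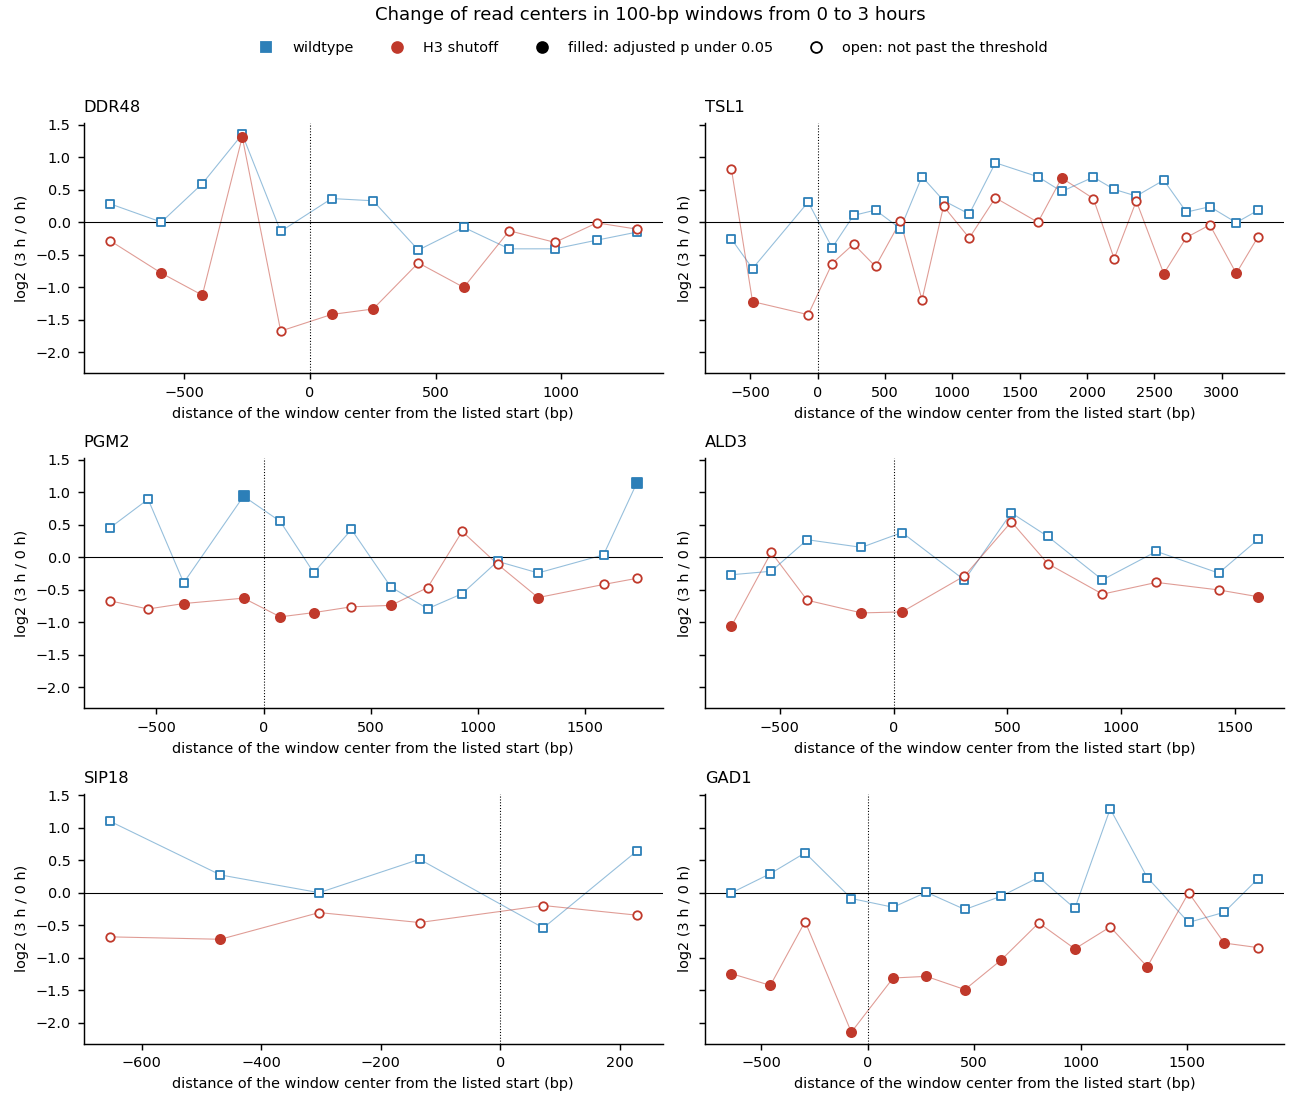
Log2 change from 0 to 3 hours of the read centers in each 100-bp window (vertical axis) against the distance of the window from the listed start in bp (horizontal axis), for wildtype (blue squares) and H3 shutoff (red circles). Filled symbols passed an adjusted p of 0.05 in edgeR's quasi-likelihood test. The red symbols lie below the blue ones in 14 of 15 windows for GAD1, 18 of 21 for TSL1 and 12 of 14 for PGM2. For ALD3, DDR48 and SIP18 they do so in 10 of 12, 9 of 13 and 5 of 6. Over all windows of the genome the median difference between the strains was -0.41.

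GAD1, whose enzyme makes gamma-aminobutyric acid from glutamate, had the largest share of windows that fell among the 6 genes. The window at -77 bp, just upstream of the start, held 146 read centers in wildtype B at 0 hours and 131 at 3 hours, 104 and 103 in wildtype C, 133 and 30 in H3 shutoff 3, and 120 and 27 in H3 shutoff 4. The 6 libraries with H3 supply thus all had over 100 read centers there, and the 2 depleted ones stood far below them. The log2 change was -2.15 in the H3 shutoff strain (edgeR adjusted p = 0.000265) and -0.09 in the wildtype (adjusted p = 0.831), with a difference of -2.06 (adjusted p = 0.00198). Of all the windows of the 6 genes it was the only one whose fall passed in every one of 12 alternative treatments of the data.

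The first nucleosome of the GAD1 transcript, at 119 bp, followed the same course. It held 219 and 192 read centers in wildtype B, 183 and 153 in wildtype C, 177 and 69 in H3 shutoff 3 and 188 and 78 in H3 shutoff 4, each at 0 and 3 hours. Both depleted libraries were again below the other 6. The change was -1.31 in the H3 shutoff strain (edgeR adjusted p = 0.00239), but it did not pass without either H3 shutoff culture, where the remaining culture gave nearly the same value. Further windows that fell lay at -640, -457, 275, 456, 626, 972, 1312 and 1673 bp, with log2 changes from -1.49 at 456 bp to -0.77 at 1673 bp. An exception was the window at 1506 bp, which held 77 and 82 read centers in H3 shutoff 3 and 85 and 80 in H3 shutoff 4, a log2 change of 0.00.

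**Figure D3:**
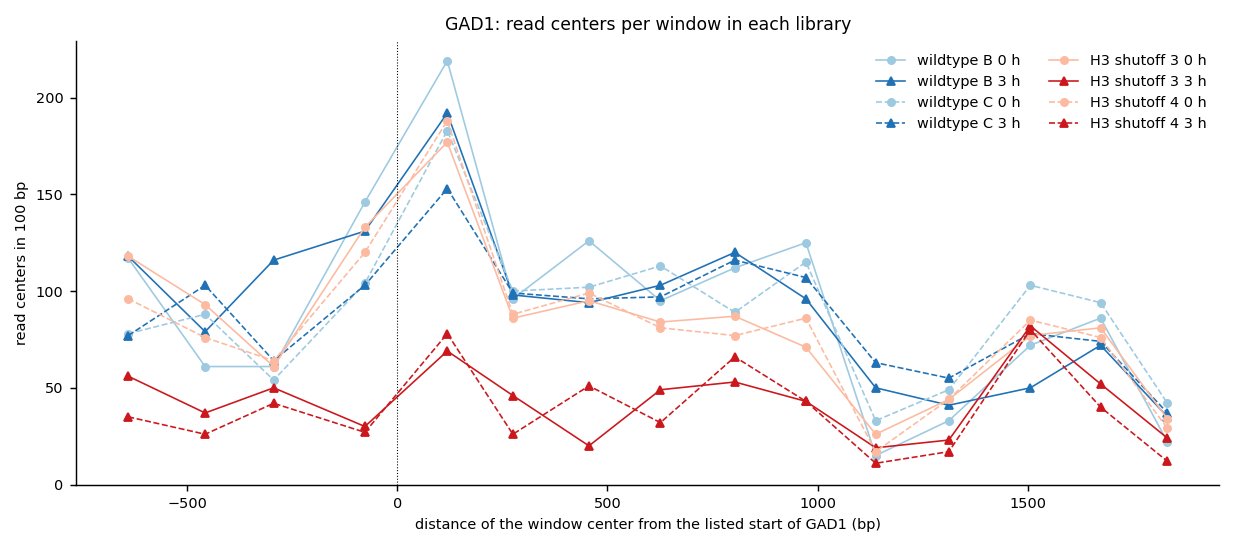
Read centers in 100 bp (vertical axis) in each of the 15 windows of GAD1 against the distance from the listed start in bp, 1 line per library. Wildtype is blue and H3 shutoff red, with light circles for 0 hours and dark triangles for 3 hours. The 2 dark red lines lie below the other 6 at -77 and 119 bp and meet them again at 1506 bp.

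Counts over whole regions showed the same for GAD1. Its promoter, the 300 bp upstream of the start, held 206 and 245 read centers in wildtype B at 0 and 3 hours, 162 and 160 in wildtype C, 193 and 75 in H3 shutoff 3 and 184 and 64 in H3 shutoff 4. No library of the other 3 groups came near the depleted pair. The log2 change per culture was -1.44 ± 0.11 upon depletion and 0.12 ± 0.19 in wildtype cells (SD, n = 2 each). The fit gave -1.44 for H3 shutoff (edgeR adjusted p = 6.88e-08) and -1.56 for the difference (adjusted p = 2.13e-05). The difference depended on the pairing of the wildtype libraries. With those of 3 hours exchanged between the cultures, 0 of all 1594 promoters passed for the difference, so that of GAD1 did not pass either. Among 1594 listed promoters this change stood at the 0.627 percentile, and 10.7% of the promoters fell in the H3 shutoff strain and 7.47% rose. A negative difference past the threshold was found in 11.7% and a positive one in 3.58%.

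The GAD1 gene body, with 1075 and 1041 read centers in wildtype B, 1122 and 1071 in wildtype C, 1068 and 803 in H3 shutoff 3 and 1061 and 758 in H3 shutoff 4, fell by 0.45 on the log2 scale (edgeR adjusted p = 0.018). The difference between the strains was -0.39 (adjusted p = 0.037), and it did not pass without any 1 of the 4 cultures (adjusted p from 0.0519 to 0.165). The stretch from 300 to 800 bp upstream fell by 0.49 (adjusted p = 0.0416), a value that rested on both H3 shutoff cultures, since the adjusted p was 0.156 without replicate 3 and 0.427 without replicate 4. Over the listed transcripts 7.27% of the gene bodies fell and 5.78% rose, and of the upstream stretches 5.7% fell and 5.27% rose. The difference was negative in 5.45% and positive in 5.51% of the upstream stretches.

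Apart from the 3 regions of GAD1, the only one of 18 regions that fell in the H3 shutoff strain was the body of ALD3. The 18 regions comprise 3 for each gene: promoter, upstream stretch and gene body. The promoters of DDR48, TSL1, PGM2, ALD3 and SIP18 gave log2 changes in the H3 shutoff strain of 0.68, -0.67, 0.19, -0.07 and -0.30, with adjusted p between 0.188 and 0.821 in edgeR's test. DDR48 and TSL1 thus had values of like size and opposite sign, and neither passed. The promoter of PGM2 rose in the wildtype, where wildtype B went from 97 to 161 read centers and wildtype C from 85 to 126, while it went from 116 to 123 and from 81 to 100 in the H3 shutoff cultures. This wildtype change of 0.65 (edgeR adjusted p = 0.0394) compares with a median of 0.25 over all promoters, of which 3.32% rose (4.45% changed in either direction). With a promoter of 500 bp it turned to -0.12 (adjusted p = 0.63). It did not pass with TMM scaling (0.43, adjusted p = 0.207), without the replicate block (adjusted p = 0.218), with fragments of 140 to 160 bp only (0.11, adjusted p = 0.861), without wildtype B (adjusted p = 0.5), without H3 shutoff 3 (adjusted p = 0.108) or without H3 shutoff 4 (adjusted p = 0.0783).

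**Figure D4:**
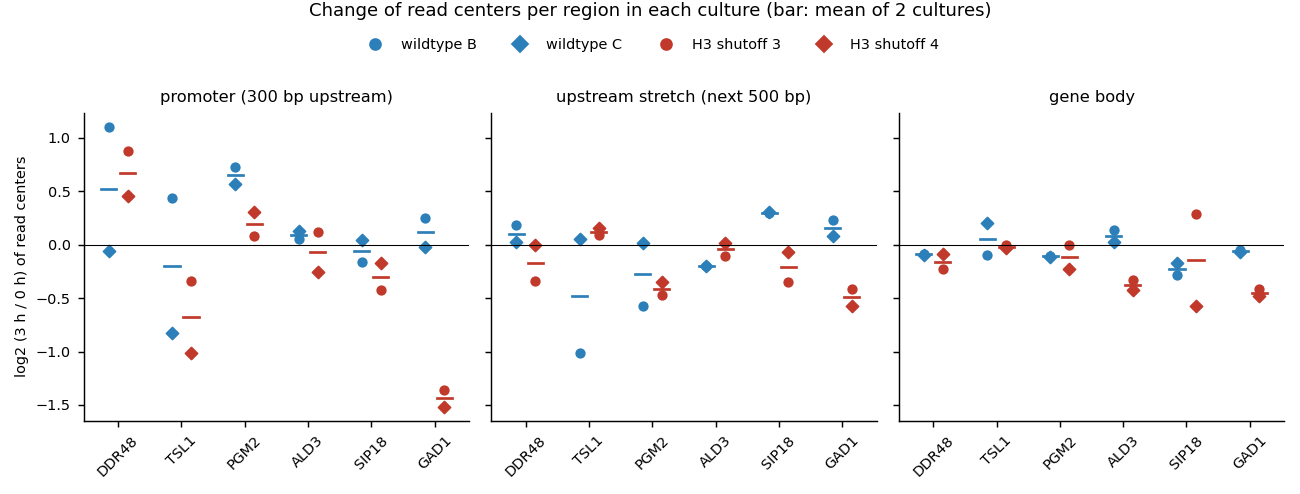
Log2 ratio of the read centers at 3 hours over 0 hours (vertical axis) in each culture for the promoters, upstream stretches and bodies of the 6 genes. Blue marks wildtype, red H3 shutoff, and the bar is the mean of 2 cultures. The GAD1 promoter in the H3 shutoff strain, at -1.36 and -1.52, is the lowest point pair of the 3 panels.

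At DDR48, the windows of the first 2 nucleosomes of the transcript lost read centers. The window at 86 bp held 104 and 123 read centers in wildtype B at 0 and 3 hours, 78 and 110 in wildtype C, 86 and 32 in H3 shutoff 3 and 83 and 31 in H3 shutoff 4. The depleted pair was below every other library, and both wildtype cultures had higher counts at 3 hours. The change was -1.42 in the H3 shutoff strain (edgeR adjusted p = 0.000907), with a difference of -1.78 between the strains (adjusted p = 0.00236). The next nucleosome, at 251 bp, went from 103 to 32 and from 73 to 37 in the H3 shutoff cultures and from 118 to 148 and from 89 to 112 in the wildtype, a difference of -1.66 (adjusted p = 0.00369).

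The authors' own calls, made in each library alone, showed the same place. A nucleosome at 84 to 89 bp of DDR48 was called in all 4 wildtype libraries and both H3 shutoff libraries of 0 hours, with 78 to 123 read centers within 50 bp of its center. At 3 hours H3 shutoff 3 had no call within the first 150 bp of the transcript, and H3 shutoff 4 had one of 15 read centers at 34 bp. Both had a call between the places of the first 2 nucleosomes, at 168 bp with 64 read centers in H3 shutoff 3 and at 200 bp with 62 in H3 shutoff 4. The fall of the 2 windows thus came with a nucleosome called midway, and loss and relocation are not separated by these counts. Downstream of 700 bp, the 4 windows of DDR48 at 793 to 1300 bp had log2 changes from -0.31 to -0.01 in the H3 shutoff strain, and none passed. Which windows of DDR48 lie in its repeats was not determined.

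One window upstream of DDR48 rose. At -270 bp, H3 shutoff 3 went from 22 to 61 read centers and H3 shutoff 4 from 16 to 35, and wildtype B from 22 to 59 and wildtype C from 10 to 24. All 4 cultures were higher at 3 hours, and the 2 strains overlapped. The log2 changes were 1.31 in the H3 shutoff strain (edgeR adjusted p = 0.0205) and 1.35 in the wildtype (adjusted p = 0.0914), with a difference of -0.04 (adjusted p = 0.964). The H3 shutoff call did not pass without either culture of that strain. The window at -592 bp, over the end of HOT1, the gene of an osmotic stress factor, fell by 0.78. The one at -429 bp, over the listed start of YMR172C-A on the minus strand, fell by 1.12. The second of these passed also as a difference between the strains (-1.72, adjusted p = 0.00355).

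At PGM2, the read centers of the nucleosome next to the start changed in opposite directions in the 2 strains. Its call hardly shifted, by 2 and 5 bp in wildtype B and C and by 4 bp in each H3 shutoff culture. The window at -93 bp went from 65 to 130 read centers in wildtype B and from 66 to 122 in wildtype C, but from 85 to 62 in H3 shutoff 3 and from 68 to 38 in H3 shutoff 4. At 3 hours both wildtype libraries were above all 6 others and both H3 shutoff libraries were the lowest. The window rose in the wildtype (0.94, edgeR adjusted p = 0.0279) and fell in the H3 shutoff strain (-0.63, adjusted p = 0.0444), and the difference of -1.57 passed as well (adjusted p = 0.00363). With fragments of 140 to 160 bp only, none of the 3 passed and the difference shrank to -0.48 (adjusted p = 0.571). The wildtype call was also lost without wildtype B, and the H3 shutoff call without either culture of that strain and with TMM scaling (-0.30, adjusted p = 0.396).

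Over the first 600 bp of PGM2 the H3 shutoff windows at 78, 234 and 594 bp fell, by 0.91, 0.85 and 0.74 on the log2 scale, and the one at 410 bp had -0.76 (edgeR adjusted p = 0.0783). The nucleosome at 78 bp held 46 and 53 read centers in wildtype B, 41 and 76 in wildtype C, 47 and 28 in H3 shutoff 3 and 67 and 32 in H3 shutoff 4. The authors called a nucleosome there, at 73 to 80 bp, in 6 libraries. In the depleted pair they called none in the first 150 bp of the transcript, and the calls on either side lay at -90 and 226 bp in H3 shutoff 3 and at -93 and 228 bp in H3 shutoff 4. The last nucleosome of the transcript, at 1739 bp, rose in the wildtype from 31 to 73 and from 39 to 81, a log2 change of 1.14 (adjusted p = 0.028). In the H3 shutoff cultures it went from 57 to 47 and from 53 to 41. The window at 926 bp was the only one of the 81 with a positive difference past the threshold (0.96, adjusted p = 0.0275), since it held more read centers at 3 hours in both H3 shutoff cultures and fewer in both wildtype ones. It did not pass without wildtype C or without either H3 shutoff culture (adjusted p from 0.0643 to 0.153).

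At ALD3, whose enzyme oxidizes aldehydes in the cytoplasm under stress, the gene body held 1023 and 1121 read centers in wildtype B at 0 and 3 hours, 1168 and 1188 in wildtype C, 1132 and 898 in H3 shutoff 3 and 961 and 716 in H3 shutoff 4. The depleted pair was the lowest of the 8. The body fell by 0.38 in the H3 shutoff strain (edgeR adjusted p = 0.0245), with a difference of -0.46 (adjusted p = 0.0281), and the adjusted p was 0.151 for the first without H3 shutoff 4. For the difference it was 0.134 without wildtype B and 0.0946 without H3 shutoff 4. Gene bodies with a negative difference past the threshold made up 9.07% of those tested, and those with a positive one 9.51%. In the wildtype no body of the 6 genes passed, against 4.23% that fell and 1.49% that rose.

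The windows of ALD3 that fell lay at -712, -141, 37 and 1600 bp, with changes of -1.06, -0.85, -0.84 and -0.60. The one at 37 bp, over the start, went from 67 to 53 in H3 shutoff 3 and from 78 to 29 in H3 shutoff 4, against 56 to 91 in the 4 wildtype libraries, so that the first lay just below that range and the second far below it. Its call did not pass without replicate 4 (log2 change -0.34, edgeR adjusted p = 0.651). The window at -712 bp lies within the paralog ALD2, the neighbor upstream, and held 131 and 107 read centers in wildtype B, 136 and 115 in wildtype C, 102 and 41 in H3 shutoff 3 and 82 and 47 in H3 shutoff 4. In the promoter of ALD3 the lowest density was less low in the depleted libraries. The lowest smoothed density of the promoter was 0.25 and 0.24 of the genome mean in H3 shutoff 3 and 4 at 3 hours, and between 0.00 and 0.12 in the other 6 libraries. It lay at -300 and -176 bp in the depleted pair and from -263 to -12 bp in the other 6, so no single gap was followed. The whole promoter went from 118 to 128 read centers in H3 shutoff 3 and from 140 to 117 in H3 shutoff 4.

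At TSL1, the longest of the genes with 3462 bp, 3 of 21 windows fell, at -484, 2569 and 3107 bp, and 1 rose, at 1811 bp. The window at -71 bp, with few read centers, went from 34 to 18 in H3 shutoff 3 and from 30 to 7 in H3 shutoff 4, a log2 change of -1.42 that did not pass (edgeR adjusted p = 0.0564). The window at 2569 bp went from 67 to 107 and from 60 to 92 in the wildtype cultures and from 62 to 37 and from 77 to 43 in the H3 shutoff cultures. The pairs did not overlap at 3 hours, and the difference was -1.44 (edgeR adjusted p = 0.00534). Its first nucleosome was uneven between the wildtype libraries, with 238 and 99 read centers at 107 bp in wildtype B and 84 and 125 in wildtype C. The H3 shutoff cultures went from 151 to 76 and from 129 to 105 there, a change of -0.64 that did not pass (adjusted p = 0.162). The gene body summed to 1989 and 1863 read centers in wildtype B, 1856 and 2135 in wildtype C, 1691 and 1687 in H3 shutoff 3 and 1790 and 1749 in H3 shutoff 4, a change of -0.02 in the H3 shutoff strain (adjusted p = 0.88).

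SIP18 is the shortest, with 355 bp and room for 2 nucleosomes, and its upstream stretch is shared with PAI3, the gene of a proteinase inhibitor that is transcribed away from it. The only window that fell was at -468 bp, between the 2 genes. It held 100 and 122 read centers in wildtype B at 0 and 3 hours, 106 and 127 in wildtype C, 94 and 66 in H3 shutoff 3 and 103 and 54 in H3 shutoff 4. Both depleted libraries were below all others. The change was -0.72 (edgeR adjusted p = 0.024), and it did not pass without either H3 shutoff culture. The difference between the strains was negative and past the threshold at -653 bp (-1.78, adjusted p = 0.014), -468 bp (-0.99, adjusted p = 0.0281) and -135 bp (-0.97, adjusted p = 0.0461), where the wildtype counts were higher at 3 hours in all 6 pairs. Over the transcript, H3 shutoff 3 went from 110 to 134 read centers and H3 shutoff 4 from 185 to 124, so the cultures disagreed in direction.

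How sharply the nucleosomes of the 6 genes were placed was read from the spread of their read centers. In the authors' calls, the median SD of the read centers within a nucleosome was 28.6 and 27.4 bp in wildtype B at 0 and 3 hours, 27.3 and 25.9 bp in wildtype C, 35.8 and 40.4 bp in H3 shutoff 3 and 33.4 and 39.0 bp in H3 shutoff 4. The H3 shutoff libraries were thus wider than the wildtype at 0 hours already and wider again at 3 hours. In each of the 6 genes the median SD was higher at 3 than at 0 hours in both H3 shutoff cultures. The median over all calls of a library was between 27.5 and 28.1 bp in the wildtype and went from 33.2 to 37.4 and from 32.7 to 37.2 bp in the H3 shutoff cultures. The number of calls in the 6 genes was 82 and 83 in wildtype B, 85 and 84 in wildtype C, 80 and 74 in H3 shutoff 3 and 81 and 71 in H3 shutoff 4.

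**Figure D5:**
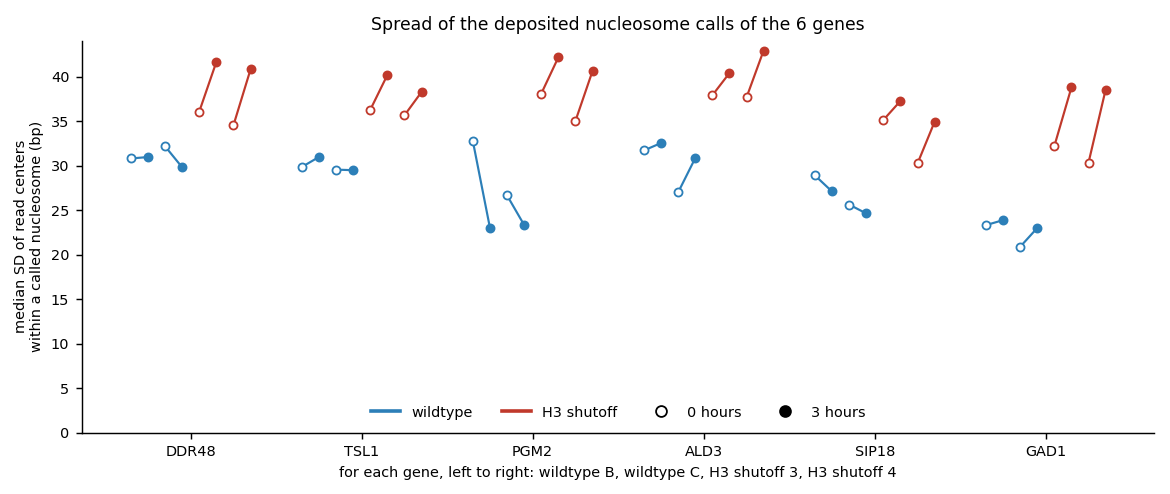
Median SD in bp of the read centers within the nucleosomes called in each library (vertical axis) for each of the 6 genes. Open points are 0 hours, filled points 3 hours, joined within a culture, with blue for wildtype and red for H3 shutoff. All 12 red lines rise, and the blue lines of PGM2 and SIP18 go down.

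The spread of the read centers within 73 bp of each pooled center was tested with limma. In the H3 shutoff strain 9 of 81 nucleosomes became wider and 0 narrower, against 16.2% and 1.57% of all nucleosomes, so the share that widened was below that of all nucleosomes. Of the 9, 4 lay in GAD1, at -77, 119, 275 and 1673 bp, 2 in ALD3 and 1 each in DDR48, TSL1 and PGM2. At 119 bp of GAD1 the SD was 18.2 and 17.7 bp in wildtype B, 17.8 and 18.6 bp in wildtype C, 19.9 and 34.6 bp in H3 shutoff 3 and 18.4 and 30.6 bp in H3 shutoff 4. The 2 depleted libraries stood alone, and the log2 change was 0.77 (limma adjusted p = 0.0269). At 251 bp of DDR48 the SD went from 26.5 to 46.4 bp and from 29.1 to 50.8 bp in the H3 shutoff cultures (log2 change 0.81, adjusted p = 0.0263). Without H3 shutoff 3, and likewise without H3 shutoff 4, 0 of the 81 passed, and without wildtype B or C 18 and 19 did.

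Wider nucleosomes were not called in the wildtype, where 0 of 81 passed and 18 had an unadjusted p under 0.05 in limma, as had 7805 of all 59693. For the difference between the strains 0 passed, here and among all nucleosomes tested, and 31 of the 81 had an unadjusted p under 0.05, as had 15960 of all. Under other settings of the same test some differences passed, and they are given with the alternatives. The median log2 change of the SD in the 6 genes was 0.18 in the H3 shutoff strain, the same as over all nucleosomes (0.18), and -0.05 in the wildtype.

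Positions of the calls were compared as well. Each call of 0 hours was paired with the nearest overlapping call of 3 hours in the same culture. The median absolute shift over the 6 genes was 8 bp in wildtype B and 9 bp in wildtype C, and 34 bp in each H3 shutoff culture. Over all calls of the genome these were 6, 6, 24 and 30 bp. A shift of 20 bp or more was seen in 28 of 81 and 27 of 83 pairs in the wildtype and in 48 of 77 and 49 of 75 (62.3% and 65.3%) in the H3 shutoff cultures. Over all calls the shares were 24.3% and 23.5% for wildtype B and C and 53.6% and 58.3% for H3 shutoff 3 and 4. Where calls were lost, 2 calls of 0 hours could be paired with the same call of 3 hours, as were 16 of the 77 and 14 of the 75 in the H3 shutoff cultures and 2 in each wildtype culture, so the shifts restate part of the lost calls. DDR48, where 4 of 12 and 2 of 10 pairs shared a call of 3 hours, had the widest shifts, with medians of 67 and 52.5 bp in H3 shutoff 3 and 4 against 4 and 7 bp in the wildtype. PGM2 was mobile in the wildtype too, with 33 and 16 bp there and 28.5 and 33 bp in the H3 shutoff cultures.

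How strongly peaks and troughs alternate along a gene was measured as the SD of the smoothed density over the gene body divided by its mean. For GAD1 this relief went from 1.34 to 1.27 in wildtype B, from 1.22 to 1.13 in wildtype C, from 0.97 to 0.62 in H3 shutoff 3 and from 1.04 to 0.86 in H3 shutoff 4. The 4 H3 shutoff libraries were all below the 4 wildtype ones, and the depleted pair was lowest. Over 1018 transcripts of at least 1000 bp the strains stood apart in the same way, with median reliefs from 1.26 down to 1.053 in the wildtype libraries and at most 0.95 under H3 shutoff, where replicate 3 went from 0.91 to 0.76 and replicate 4 from 0.89 to 0.95. DDR48 went from 0.75 to 0.50 and from 0.78 to 0.63 in the H3 shutoff cultures and from 1.03 to 0.97 and from 0.96 to 0.84 in the wildtype. For TSL1, ALD3 and SIP18 the H3 shutoff cultures disagreed in direction. These changes were compared between the strains by exact permutation (two-sided), which cannot go below p = 0.333 with 2 cultures against 2. The p was 0.333 for DDR48, PGM2, SIP18 and GAD1 and 0.667 for TSL1 and ALD3.

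At 0 hours the counts of read centers showed no difference between the strains that passed, which does not show that they were alike, and the spread of the called nucleosomes and the relief of GAD1 and DDR48 already differed in value. In edgeR's test of the counts 0 of the 81 windows and 0 of the 18 regions differed between H3 shutoff and wildtype, and 7 windows and 0 regions had an unadjusted p under 0.05. Among all 60321 windows 0.00332% passed and 3826 had an unadjusted p under 0.05, and DESeq2 called 0 of the members and 3 windows in all. The log2 differences at 0 hours ranged from -0.74 to 0.65 over the windows of the 6 genes.

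Other listed genes that belong to the same response were counted for context. Over all promoters 10.7% fell and 7.47% rose in the H3 shutoff strain, and 11.7% had a negative difference between the strains. With the 3-hour wildtype libraries exchanged, 16 of 1594 promoters fell and 1 rose in the H3 shutoff strain, and 0 passed for the difference. DESeq2 called 14 promoters that fell and 32 that rose, and 0 negative and 2 positive differences. The genes of the lists were not followed under these alternatives, so their calls are less certain. Of 6 genes of trehalose and glycogen metabolism, 3 promoters fell in the H3 shutoff strain and 0 rose, and the same 3 had a negative difference between the strains. They were UGP1, which makes the glucose donor of both sugars (-1.09, edgeR adjusted p = 9.75e-06), GSY2, a glycogen synthase (-0.82, adjusted p = 0.00101), and PIG1, a putative targeting subunit of a phosphatase (-0.99, adjusted p = 0.0143). The UGP1 promoter held 182 and 181 read centers in wildtype B, 177 and 164 in wildtype C, 168 and 89 in H3 shutoff 3 and 157 and 64 in H3 shutoff 4. None of the 6 gene bodies passed, and the trehalose genes TSL1 and TPS3 were not among the promoters that fell.

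Among 14 other targets of general stress, 3 promoters fell, where 10.7% of all promoters did: the disaggregase HSP104 (-0.96), the dihydroxyacetone kinase DAK1 (-0.64) and the peroxiredoxin AHP1 (-1.02). HSP104 went from 103 to 49 and from 87 to 48 read centers in the H3 shutoff cultures and from 91 to 105 and from 99 to 99 in the wildtype. In the wildtype 1 of the 14 rose, the promoter of ALD2 (0.63, edgeR adjusted p = 0.0346), where 3.32% of all promoters rose. Of the 14 bodies, those of TMA10 (-0.72), MCR1 (-0.41), HOR7 (-0.73) and MSC1 (-0.31) fell in the H3 shutoff strain, where 7.27% of all bodies did. The body of AHP1 rose (0.74, edgeR adjusted p = 0.0477), opposite to its promoter, where 5.78% of all bodies rose. The bodies of GPX1 (-0.68) and PAI3 (-0.73) had a negative difference between the strains, as had 9.07% of all bodies. Of 5 genes of regulators, 0 promoters fell in the H3 shutoff strain, and 1 rose in the wildtype, that of the kinase HOG1 (0.82, adjusted p = 0.0472). The bodies of MSN2, MSN4 and HOG1 had a positive difference between the strains, as had 9.51% of all bodies. The values were 0.46, 0.42 and 0.48 (edgeR adjusted p = 0.0272, 0.0404 and 0.0333). In these bodies the counts went up in both H3 shutoff cultures and down in both wildtype ones. Of all 1609 bodies, 146 had a negative and 153 a positive difference. With the 3-hour wildtype libraries exchanged, these numbers were 50 and 47. Medians of the H3 shutoff changes of the promoters were -0.45, -0.10 and 0.15 in the 3 lists and -0.07 over all promoters.

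The 6 promoters did not move as one. Pearson's r between 2 members over the 8 libraries, on log2(count + 1), ran from -0.49 for DDR48 and SIP18 to 0.72 for DDR48 and PGM2. The listed promoters most like the mean of the 6 were those of ACO1, NMD4, MDM30, HFD1 and STV1, with r from 0.94 to 0.96 over the 8 libraries. These values share libraries and sequencing depth and are given as a description.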

How the data were processed

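MNase-seq libraries of Saccharomyces cerevisiae were re-analyzed. The authors aligned reads with Bowtie 0.12.6 at default settings to sacCer1, discarded rDNA and pairs outside 100 to 200 bp, and drew equal numbers of fragments per library. The authors called nucleosomes in each library separately, and the deposited tables hold counts of read centers, positions, lengths and SDs in bp, and a fraction that was not used here (how much of a nucleosome's reads sit on its central base). The deposited fragment lists give positions in bp. The deposited counts and positions used here carry no scaling beyond the equal draw, as far as the sources used here state.

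Read centers are fragment midpoints. They were counted in 100-bp windows around centers called on the 8 libraries pooled, and in promoters (300 bp upstream), upstream stretches (the next 500 bp) and gene bodies of the listed transcripts. The table of listed transcripts that was used covers 6 chromosomes. Those on chromosome 10 were left out because their starts were offset from the fragments. Windows and regions with at least 80 read centers over the 8 libraries entered edgeR 4.0.16 quasi-likelihood tests (R 4.3.3), with Benjamini-Hochberg adjustment at 0.05 over each whole table, no scaling, and culture as a block. Per the methods both time points came from 1 culture, and libraries were paired by replicate letter or number, which for the wildtype rests on the letters alone. The deviations of a culture at 0 and 3 hours had an r across windows of 0.33 in H3 shutoff and -0.04 in wildtype. The spread was tested with limma 3.58.1 on the log2 SD within 73 bp, with at least 5 read centers per library. DESeq2 1.42.0, TMM scaling, other window widths, left-out cultures and other fits were alternatives. The scripts were tested on simulated data. Log2 changes of single cultures add 0.5 to each count.

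The members, the 3 gene lists and the tests were chosen with earlier results of these data known. All 6 genes were described. Of the lists, genes whose promoter passed in the H3 shutoff strain were named, at most 3 a list. Other genes were named outside that rule, after their values were seen. They were ALD2 and HOG1, whose promoters passed only in the wildtype, and all genes of the lists whose bodies passed. TPS3 was named though it did not pass. The 5 promoters most alike were taken by Pearson's r. Promoter motifs were not analysed here.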

Additional observations from a re-analysis of the deposited data

Results flagged for a closer look

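H3 shutoff and wildtype cells changed unequally from 0 to 3 hours by the interaction term of edgeR's quasi-likelihood test in 4 regions and 27 windows of the 6 genes. Each value here is the log2 change in H3 shutoff minus that in wildtype. Groups of 2 libraries are too small to look for single libraries that stand apart.

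GAD1 gave the largest share. Its promoter had a difference of -1.56, its upstream stretch -0.65 and its body -0.39. Its windows had -1.24 at -640 bp, -1.72 at -457 bp, -1.06 at -294 bp, -2.06 at -77 bp, -1.09 at 119 bp, -1.29 at 275 bp, -1.23 at 456 bp, -0.98 at 626 bp, -1.82 at 1138 bp and -1.37 at 1312 bp. The body of ALD3 had -0.46, and its windows -1.01 at -141 bp, -1.22 at 37 bp and -0.88 at 1600 bp.

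In DDR48 the values were -1.72 at -429 bp, -1.78 at 86 bp, -1.66 at 251 bp and -0.92 at 612 bp. In PGM2 they were -1.69 at -538 bp, -1.57 at -93 bp, -1.47 at 78 bp, -1.46 at 1739 bp and, as the only positive one, 0.96 at 926 bp. TSL1 had -1.07 at 2201 bp and -1.44 at 2569 bp. SIP18 had -1.78 at -653 bp, -0.99 at -468 bp and -0.97 at -135 bp. At -538 and 926 bp of PGM2, -653 and -135 bp of SIP18, 2201 bp of TSL1 and -294 and 1138 bp of GAD1, neither strain's own change passed the threshold.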

How the results depend on the processing

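Most calls rested on both H3 shutoff cultures, on the absence of scaling and on the test used. Some also depended on the pairing of the wildtype libraries. Of 78 single values past the threshold, 50 no longer passed without H3 shutoff 3 and 61 without H3 shutoff 4. With TMM scaling 40 of 69 were lost, with DESeq2 67 of 69 and with fragments of 140 to 160 bp 43 of 76. With the 3-hour wildtype libraries exchanged, 25 of 78 were lost. DESeq2 differed from the main fit in both its size factors and its test. For the difference it gave no adjusted p to 28068 of all 60321 windows, and a value without one counted as not passing. None of the 78 values changed sign except the wildtype change of the PGM2 promoter, which was -0.12 with a promoter of 500 bp. The causes were not tested. Depth limits windows with few read centers, and 1 window of TSL1 was too shallow to test.

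The number of windows that fell in H3 shutoff, 29, became 9 with TMM scaling, 1 with DESeq2, 17 with fragments of 140 to 160 bp (16 of them among the 29) and 15 in windows of 140 bp, and leaving out a culture gave 6 to 36. The number that rose, 2, became 5 with TMM scaling, 1 in windows of 60 bp and 0 with DESeq2, the short range of fragments or windows of 140 bp, with 0 to 2 on leaving out a culture. In wildtype, 0 fell and 2 rose. Windows of 60 bp gave 2 that fell, DESeq2 0 that rose, and the short range of fragments or centers called at 0 hours 1. Leaving out a culture gave 0 to 4 that fell and 0 to 6 that rose. For the difference, the 26 negative windows became 9 with TMM scaling, 0 with DESeq2, 11 with the short range of fragments, 12 in windows of 140 bp and 7 to 22 without 1 culture. The 1 positive window became 0 with DESeq2, the short range of fragments and windows of 140 bp, and 0 to 1 without 1 culture.

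The number of regions that fell in H3 shutoff, 4, became 1 with DESeq2, and leaving out a culture gave 1 to 5. The 1 region that rose in wildtype became 0 with TMM scaling, DESeq2, the short range of fragments and a promoter of 500 bp, and 0 to 1 without 1 culture, while regions that fell numbered 0 to 2. The 4 negative differences became 0 with DESeq2, 2 with the short range of fragments and 1 to 3 without 1 culture, and the positive ones 0 to 1. For the spread, the 9 wider nucleosomes became 17 with at least 20 read centers in every library, 0 within 50 bp, 0 with the short range of fragments and 0 to 19 without 1 culture. With at least 20 read centers, 1 became narrower in wildtype and 12 had a positive difference. Leaving out a culture gave 0 to 3 and 0 to 8.

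Without the replicate block, the windows with a negative difference were 17, those that rose in H3 shutoff 1, those that rose in wildtype 1 and those with a positive difference 0. The regions that fell in H3 shutoff were 2, those that rose in wildtype 0 and those with a negative difference 2, and 2 nucleosomes had a positive difference in spread. With the block and the 3-hour wildtype libraries exchanged, the windows that rose in H3 shutoff were 0 and those with a positive difference 0, and the regions that fell in H3 shutoff were 1, those that rose in wildtype 0 and those with a negative difference 0.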
